A study of Homo sapiens with 32 samples.

Results

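MYC without its second conserved box was compared here with an empty vector, to see which of the changes made by full-length MYC remained once box II was removed. The comparison uses 8 of the 32 libraries of the study, 4 labelled d2 (MYC deletion status "MYC 2") and 4 labelled EV (empty vector). It was not among the authors' own comparisons. For each gene the log2 fold of d2 against WT (full-length MYC) was added to the log2 fold of WT against EV, both from the authors' deposited table, so that the WT term cancels. Both folds were given for 36805 of 58317 genes.

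All libraries came from TET21 cells (SH-EP/TET21/N), a human neuroblastoma line with a MYCN transgene that doxycycline switches off, at passages given in the labels as a range. The protocol, written for cells with WT MYC, gives doxycycline at 1 µg/mL over 7 days before harvest, so d2, WT and EV cells are taken to share that treatment. The other 5 groups carry further MYC deletions, labelled d0x, d1, d3a, d3b and d4. Which residues each mutant lacks is not described in the labels, and d2 is taken to lack MYC box II from its name. Replicates are numbered 4 to 7 in every group, and no label says that they are separate cultures, so the authors' calls may measure technical spread only.

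MYC is a transcription factor that pairs with MAX and binds DNA at E-boxes, short palindromic motifs whose best known form is CACGTG. It is known for raising genes of ribosome production, nucleotide synthesis and mitochondria, and for lowering genes of the extracellular matrix and cell adhesion. Box II is a conserved stretch of its transactivation domain, known for recruiting TRRAP and the histone acetyltransferases that TRRAP carries, and for being needed when MYC transforms cells.

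In these data the genes that full-length MYC changed lay, at the median, nearer to the vector level without box II. Genes that full-length MYC raised had a median log2 fold of 0.59 with full-length MYC (the authors' deposited table) and of 0.13 without box II. Genes that it lowered had medians of -0.88 and -0.23. List medians were 0.13 for ribosome biogenesis and for mitochondrial genes and 0.09 for nucleotide synthesis, values no larger than the 0.13 of histone and mitochondrial genome genes, 1 of which full-length MYC raised. Collagens and other matrix genes had medians between -0.40 and -0.31. Of the 754 raised genes 16 stayed at least 1 above vector, such as GALNT18, BMP2 and ACTN2. Of the 1119 lowered genes 90 stayed at least 1 below, such as SERPINB2, DSG2, CCND2 and genes of epithelial cells. Among all genes 6.39% lay at least 1 above vector and 8.04% at least 1 below. The 16 are no larger a share than among all genes, and the 90 are a share close to it. Among protein-coding genes alone, 13 of 654 raised genes were no larger a share than the 2.5% of all such genes. The 81 of 997 lowered ones were a larger share than the 4.5% of all such genes.

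A call, written below as a gene that rose or fell, means that its posterior probability of differential expression (PPDE) in the authors' deposited table was at least 0.95, which the file headers equate with a false discovery rate below 0.05. The summed fold of d2 against EV has no such probability and no error, so it is described and not tested. Each deposited fold is a posterior estimate, and how much of a small sum such as 0.13 or -0.23 the shrinkage of such estimates can leave was not tested. A sum of at least 1 or at most -1, a 2-fold difference, is spoken of as past 1. Where 2 folds are set side by side, the one with full-length MYC is WT against EV and the one without box II is d2 against EV. Of all 36805 genes, 2350 (6.39%) were at least 1 higher in d2 than in EV and 2959 (8.04%) at least 1 lower, with a median of -0.02. Among 16633 protein-coding genes the shares were 2.5% and 4.5%. In all, 6925 genes have a fold shared exactly with more than 5 other genes, taken here to mark values that the authors' model set from very few reads, and without them 1177 genes were at least 1 higher and 1421 at least 1 lower. As a rough guide to scatter that uses neither d2 nor EV, d3b against WT (36 genes called) was taken. Its median absolute log2 fold was 0.12 over the genes called risen in WT against EV and 0.14 over those called fallen. That comparison is a single fold between 2 MYC forms, so it can hold real differences and is not the error of the sum.

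The transgene comes first. MYC stood at 0.98 in WT against EV and at 0.68 in d2 against WT in the authors' deposited table, which gives 1.66 for d2 against EV. Neither deposited fold was called, with PPDE values of 0.348 and 0.0486 in the authors' deposited table. Reads over the whole gene include the cells' own MYC and do not show the deletion. For MYCN the sum was -0.06. Against vector, MYC RNA in d2 (1.66) was thus close to that in d0x (1.55), d1 (1.44), d3a (1.64) and d4 (1.54), and above d3b (0.88).

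The cells' labelled identity was checked against markers. Of the adrenergic neuroblastoma markers, TH had no pair of folds, while HAND2 stood at 0.18, GATA3 at 0.11, DBH at -0.91 and PHOX2A at -1.18 in d2 against EV. The 21 measured genes of the adrenergic list had a median of -0.09, with 5 at most -1 and 1 at least 1. Of the mesenchymal markers, PRRX1 (0.02), SNAI2 (0.01), TWIST1 (-0.05), VIM (-0.11) and CD44 (0.02) lay near vector. FN1 did not, at -0.74 in d2 against EV, and was called in both comparisons. Over the 24 measured genes of the mesenchymal list the median was 0.02 and none was past 1. Only folds were used, so levels of these markers within a group are not known here. In bulk RNA, fewer cells of a type and less RNA per cell cannot be told apart.

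Promoters of 4 genes are shown because they carry the E-box that MYC binds, have a MYC binding site in the authors' deposited table of bound genes, and were called in both comparisons. They were chosen after their values were seen. Each is the 250 bases before the RefSeq start site on GRCh38.p14, written 5′ to 3′ on the gene's own strand, with CACGTG in capitals.
EIF4A3: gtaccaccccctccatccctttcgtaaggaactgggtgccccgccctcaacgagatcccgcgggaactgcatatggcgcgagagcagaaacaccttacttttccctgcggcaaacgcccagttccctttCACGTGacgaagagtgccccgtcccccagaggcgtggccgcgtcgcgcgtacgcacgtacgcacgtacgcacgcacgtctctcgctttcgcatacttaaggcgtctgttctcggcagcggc
MARS2: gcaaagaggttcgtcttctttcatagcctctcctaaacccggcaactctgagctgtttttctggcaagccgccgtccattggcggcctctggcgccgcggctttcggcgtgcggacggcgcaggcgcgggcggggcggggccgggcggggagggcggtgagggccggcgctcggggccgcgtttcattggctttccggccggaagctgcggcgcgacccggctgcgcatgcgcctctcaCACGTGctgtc
UTP14A: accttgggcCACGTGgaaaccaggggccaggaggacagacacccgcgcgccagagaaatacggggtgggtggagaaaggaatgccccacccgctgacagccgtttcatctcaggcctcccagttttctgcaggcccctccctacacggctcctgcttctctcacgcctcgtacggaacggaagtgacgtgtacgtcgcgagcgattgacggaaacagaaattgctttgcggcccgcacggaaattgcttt
ACTN2: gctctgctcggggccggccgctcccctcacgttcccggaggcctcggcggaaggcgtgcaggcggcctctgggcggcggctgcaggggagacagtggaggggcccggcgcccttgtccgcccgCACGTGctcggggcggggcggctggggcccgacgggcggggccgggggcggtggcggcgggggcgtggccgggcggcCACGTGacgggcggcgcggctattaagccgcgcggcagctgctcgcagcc

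The first lies at chr17:80147129-80147378 on the minus strand, with its E-box 121 bases before the start site. MARS2 lies at chr2:197705119-197705368 on the plus strand, with the motif 11 bases before the start. For UTP14A the window is chrX:129905914-129906163 on the plus strand, with the motif 241 bases before the start. ACTN2 lies at chr1:236686249-236686498 on the plus strand and holds 2 motifs, 127 and 50 bases before the start. EIF4A3, an RNA helicase of the exon junction complex, stood at 0.51 with full-length MYC (the authors' deposited table) and at -0.05 without box II. MARS2, the mitochondrial methionyl-tRNA synthetase, stood at 0.95 with full-length MYC (the authors' deposited table) and at 0.04 without box II. UTP14A, a factor of the small ribosomal subunit processome, stood at 0.42 with full-length MYC (the authors' deposited table) and at -0.08 without box II. These 3 genes lay within 0.25 of vector without box II. ACTN2, an actin crosslinker of muscle, did not: it kept 1.94 in d2 against EV, where the authors' deposited table has 3.69 for full-length MYC.

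CACGTG, a palindrome that reads the same on both strands, stood in 6.49% of 27305 RefSeq promoters of this length and in 8.17% of the 13333 that belong to protein-coding genes with both folds. Genes called risen in WT against EV held it in 11.3% of 550 promoters, and genes called fallen in 6.12% of 833. The 166 promoters of genes called risen in WT against EV and fallen in d2 against WT held it in 13.3%. The 162 promoters of genes called fallen in WT against EV and risen in d2 against WT held it in 3.09%. Among lowered genes that stayed past 1 without box II and were not called in d2 against WT it stood in 2 of 59 promoters, or 3.39%, and among such raised genes in 0 of 7. A match is only a description of the letters in this window.

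Which raised genes remained above vector was asked first. By the authors' deposited table, 754 genes (2.05% of those with both folds) rose and 1119 (3.04%) fell in WT against EV. Of the 754, 142 had a WT against EV fold of at least 1, and 16 had a d2 against EV fold of at least 1. Without box II the middle 50% of these genes lay between 0.04 and 0.28, and 532 (70.6%) lay within 0.25 of vector, as did 53.1% of all genes and 70.1% of protein-coding genes. At a limit of 1.5-fold, 53 of the raised genes lay above vector, where all genes have 12.6%. A count of 16 in 754 is no larger a share than among all genes. The comparisons WT against EV and d2 against EV share the EV libraries, so their values are given side by side and no relation between them is computed.

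Raised genes were also described by the size of their rise. For rises under 0.5 the medians were 0.39 with full-length MYC (the authors' deposited table) and 0.07 without box II (266 genes). Between 0.5 and 1 they were 0.65 and 0.16 (346 genes), and between 1 and 2 they were 1.30 and 0.37 (121 genes). Between 2 and 4 they were 2.41 and 0.79 (18 genes). In each of these bins the d2 median was above 0 and well under the WT median.

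**Figure D1:**
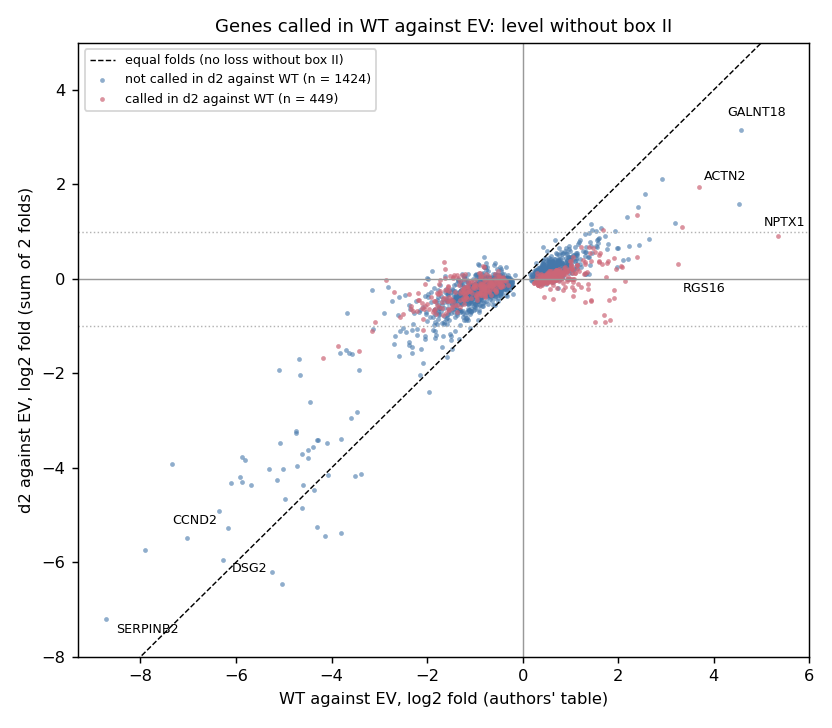
Each point is a gene called in WT against EV, with its log2 fold in WT against EV (horizontal) and in d2 against EV (vertical). Points on the dashed line would have the same fold with and without box II, and dotted lines mark a 2-fold difference from vector; most points lie near the horizontal axis, apart from a tail of genes with falls beyond 4 on the log2 scale.

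Lowered genes were described in the same way. Of the 1119 fallen genes, 463 had a WT against EV fold of at most -1 and 90 a d2 against EV fold of at most -1, a share close to the 8.04% of all genes. Among protein-coding genes, 81 of 997 fallen genes had a d2 against EV fold of at most -1, a larger share than the 4.5% of all such genes. The middle 50% of the 1119 lay between -0.43 and -0.10, and 586 (52.4%) lay within 0.25 of vector. That is no larger a share than the 53.1% of all genes, and below the 70.1% of protein-coding genes. At 1.5-fold 195 of the 1119 lay below vector, a larger share than the 13.8% of all genes. Of the 16633 protein-coding genes 1355 did so, also a smaller share. Among the 18064 genes within 0.25 of 0 in d3b against WT, 2.45% were at least 1 above vector and 3.12% at least 1 below, with 9 and 28 of the genes that rose and fell in WT against EV among them. For falls under 0.5 the medians were -0.40 with full-length MYC (the authors' deposited table) and -0.09 without box II (192 genes), and for falls between 1 and 2 they were -1.32 and -0.39 (348 genes). Falls between 2 and 4 gave -2.38 and -0.87 (74 genes). For the 41 genes that fell by over 4 the medians were -4.96 in WT against EV and -4.03 in d2 against EV, and all 41 stayed at or below -1. Of these 41, 13 have folds set by the model and 2 are bound by MYC.

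Against vector, d2 lay nearest to 0 of the 7 MYC forms over both gene sets. Over the risen genes the medians against EV were 0.67 in d3b, 0.59 in WT, 0.45 in d3a, 0.37 in d1, 0.35 in d0x, 0.25 in d4 and 0.13 in d2. Over the fallen genes they were -0.88 in WT, -0.78 in d3b, -0.70 in d1, -0.69 in d3a, -0.56 in d4, -0.53 in d0x and -0.23 in d2. These genes were chosen on WT and EV libraries, which also enter the folds.

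Genes can also be chosen on libraries that are neither d2 nor EV, from the authors' calls for d4 or d0x against WT, a choice added after the data were seen. The 325 genes that fell in d4 against WT (0.894% of those tested) had a median of 0.03 in d2 against EV, beside 0.49 in d3b against EV. The 95 that rose in d4 against WT (0.261%) stood at -0.26 in d2 and at -0.86 in d3b. With d0x the 84 fallen genes (0.231%) stood at 0.12 in d2 and 0.71 in d3b, and the 130 risen genes (0.357%) at -0.18 and -0.65. Over each of these 4 sets d2 lay nearer to vector than d3b did, which shares the EV libraries with it.

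**Figure D2:**
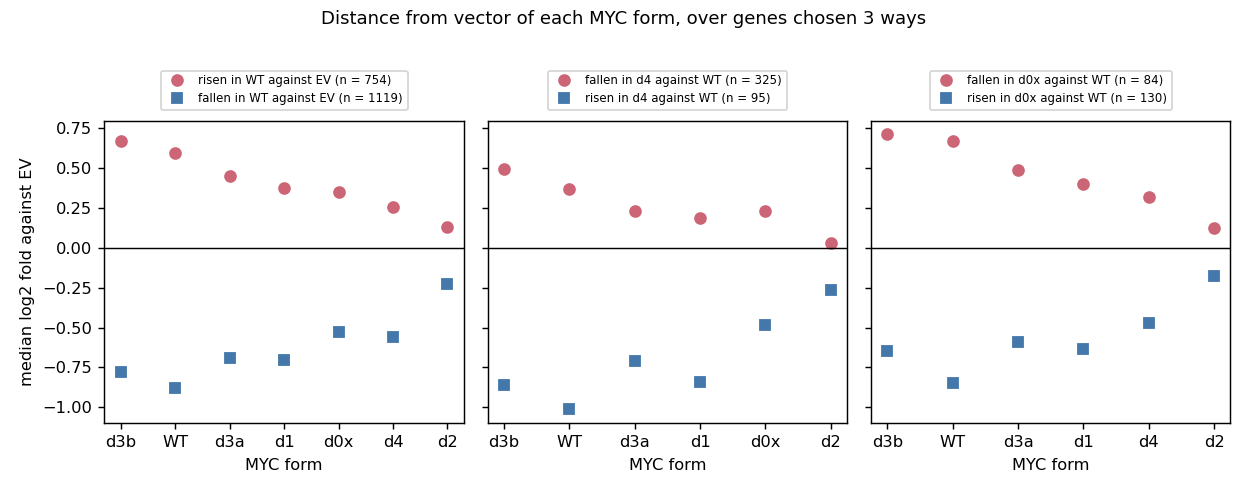
Median log2 fold against EV (vertical) of each MYC form (horizontal), over genes called in WT against EV (left), in d4 against WT (middle) and in d0x against WT (right), with the form used for the choice left out of its own panel. Circles are genes higher with WT and squares genes lower with WT; in every panel the d2 medians, between 0.03 and 0.13 for circles and between -0.26 and -0.18 for squares, lie nearest to 0.

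The 12 raised genes that stayed at least 1 above vector, and were not called in d2 against WT, include secreted and signalling proteins. GALNT18, a transferase that starts O-linked glycans, stood at 4.58 with full-length MYC (the authors' deposited table) and at 3.14 without box II. BMP2, a bone morphogenetic protein ligand, stood at 2.92 with full-length MYC (the authors' deposited table) and at 2.11 without box II. For the acute-phase protein SAA1 the values were 2.56 with full-length MYC (the authors' deposited table) and 1.79 without box II. In these 3 genes most of the log2 fold remained without box II. A missing call in d2 against WT does not by itself show that a fold was kept. BMP2 had -0.81 there with a PPDE of 0, and SERPINB5, a lowered gene named below, 1.57 with a PPDE of 0 (the authors' deposited table). CCL5, a chemokine, went from 4.52 with full-length MYC (the authors' deposited table) to 1.58 without box II, and d4 (1.26) and d0x (1.48) lay as low. HSD11B1, which regenerates active glucocorticoid, went from 3.19 with full-length MYC (the authors' deposited table) to 1.18 without box II. The d2 against WT folds of these 2 genes, -2.94 and -2.01 in the authors' deposited table, were large but not called (PPDE 0.64 and 0.296).

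The same rule named 5 further genes. In d2 against EV these were BEND4 at 1.52, the phosphodiesterase PDE4A at 1.31, the transcription factor NFATC1 at 1.16, the cell death activator HRK at 1.08 and the heparan sulfate sulfotransferase HS6ST2 at 1.04. HS6ST2 was at -0.06 in both d3b and d0x against EV. PDE4A, NFATC1 and HRK have a MYC binding site, 3 of the 12 kept genes, against 510 of the 754 risen genes.

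Of the 85 lowered genes that stayed at most -1 below vector without a call in d2 against WT, 16 have model-set folds. SERPINB2, DSG2 and CCND2 had large negative folds in all 7 MYC forms, which share the EV libraries. For the 85 genes a response to MYC and a higher RNA level of the EV cultures cannot be told apart. SERPINB2, an inhibitor of plasminogen activators, stood at -8.71 with full-length MYC (the authors' deposited table) and at -7.19 without box II. DSG2, a desmosomal cadherin, stood at -6.28 with full-length MYC (the authors' deposited table) and at -5.95 without box II. The G1 cyclin CCND2 stood at -7.04 with full-length MYC (the authors' deposited table) and at -5.49 without box II. In these 3 genes d4 against EV was the least deep of the 7 forms: -5.53 for SERPINB2, -2.90 for DSG2 and -3.35 for CCND2.

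A further 6 genes named by the rule, CHMP4C (-6.46), TC2N (-6.20), B3GALNT1 (-5.44), RBP7 (-5.39), FAM83A (-5.28) and WNT7A (-5.25), have folds set by the model, and their size in d2 against EV carries little information. Below the 10 named, and picked after their values were seen, were SLFN11 (-4.92), an interferon-induced protein that blocks stressed replication forks, TIMP3 (-4.66), an inhibitor of matrix proteases, and AHR (-4.36), the aryl hydrocarbon receptor. Epithelial genes seen in the same range included SERPINB5 (-4.30), TP63 (-3.84) and DSC2 (-3.76) in d2 against EV.

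Part of the epithelial list moved with these falls. Of 16 measured genes on the epithelial list, 8 stood at most -1 in d2 against EV, 4 fell in WT against EV and none was called in d2 against WT. The list's median was -1.32 with full-length MYC (the authors' deposited table) and -1.04 without box II, against -0.02 for all genes. EPCAM stood at -3.54, CDH1 at -2.95, KRT14 at -2.03, ESRP1 at -2.02, KRT5 at -1.92 and KRT17 at -1.11 in d2 against EV, beside DSG2 above and GRHL2 at -6.81. EPCAM, ESRP1, KRT17 and GRHL2 were called in neither comparison. Among simple-epithelium keratins KRT7 stood at -0.96, KRT19 at -0.67, KRT8 at -0.30 and KRT18 at 0.18. Of the remaining listed genes, ELF3 stood at 1.40, CLDN4 at 0.30, JUP at -0.29 and DSP at -0.47 with full-length MYC (the authors' deposited table). Their d2 against WT folds there were -1.30, -0.05, 0.28 and 0.135, and none was called in either comparison. CLDN4 was the list's highest gene in d2 against EV, at 0.25, and 3 of the 16 genes lay within 0.25 of vector. Against EV the list's median was between -1.59 and -1.32 in d3b, d1, d3a, d0x and WT and -0.64 in d4. Without the 4 listed genes that fell, 86 of the 1115 remaining fallen genes stayed at or below -1, and the median of the fallen genes was -0.23. The part of these markers in the deep falls was not tested. Since every MYC form shares the EV libraries as its reference, a response to MYC and a higher epithelial RNA level of the EV cultures cannot be told apart.

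Among kept falls of under 3 in WT against EV, where model-set folds were left out, 33 genes remained, 11 of them MYC-bound. Their medians were -2.05 with full-length MYC (the authors' deposited table) and -1.26 without box II. Examples picked after their values were seen are signalling genes and mediators of inflammation. In d2 against EV these were the semaphorin SEMA4A (-2.39), the WNT antagonist DKK2 (-1.48), the interferon-induced GTPase GBP4 (-1.47), the death ligand TNFSF10 (-1.39), the inflammasome sensor NLRP3 (-1.28), the WNT agonist RSPO3 (-1.28) and the plasminogen activator PLAT (-1.19). GBP4, at -1.48 with full-length MYC (the authors' deposited table), and RSPO3, at -1.33 there, had nearly the same fold with and without box II.

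Raised genes called in both comparisons, with opposite directions, were 225 in all, where WT against EV and d2 against WT share the WT libraries. In d2 against WT, 289 genes (0.785%) fell and 265 (0.72%) rose in the authors' deposited table. NPTX1, a neuronal pentraxin of excitatory synapses, stood at 5.34 in WT against EV and -4.42 in d2 against WT in the authors' deposited table, which left 0.92 in d2 against EV. RGS16, a regulator of G-protein signalling, stood at 3.25 with full-length MYC (the authors' deposited table) and at 0.32 without box II. NOV, a matricellular protein of the CCN family, went from 2.40 with full-length MYC (the authors' deposited table) to 0.46 without box II. GRB14, an adaptor of the insulin receptor, went from 2.07 with full-length MYC (the authors' deposited table) to 0.26 without box II. These genes lay within 1 of vector without box II, whereas PLCXD3, at 1.09 in d2 against EV, and ACTN2 did not. NKAIN1 (0.44) and the small nuclear RNA pseudogene RNU2-63P (0.21) also lay within 0.5 of vector in d2; reads of the latter can come from near-identical copies.

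Over the 225 genes the d2 against EV median was 0.04, and 179 lay within 0.25 of vector. Of the 225, 12 lay at least 0.25 on the other side of vector from WT. They included the lymphoid transcription factor IKZF3 (-0.91), the phosphatase INPP5D (-0.45), the WNT regulator NKD1 (-0.45), METTL7B (-0.42), the protein C receptor PROCR (-0.39) and SPSB4 (-0.35) in d2 against EV. The remaining 6 lie in 1 stretch of chromosome 11: HBE1, embryonic beta-like globin, and the olfactory receptors OR51B2, OR51B4, OR51I1, OR51I2 and OR51Q1.

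That stretch of chromosome 11, from HBB to OR51A10P in RefSeq's order, holds 23 genes, 21 of them with both folds. Their median was 1.70 in WT against EV, -1.87 in d2 against WT in the authors' deposited table and -0.40 in d2 against EV. Of the 21 genes, 15 were below vector in d2, where values ran from -1.53 to 0.72, and 9 were called in WT against EV. OR51K1P, an olfactory receptor pseudogene named by the rule, stood at 2.14 with full-length MYC (the authors' deposited table) and at -0.04 without box II. The genes overlap or resemble each other and whether counting used strand is not stated, so they are uncertain as single genes.

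Lowered genes called in both comparisons were 224, with a median of -0.21 in d2 against EV and 124 within 0.25 of vector. The named ones are secreted or matrix proteins for the most part. IGFBP5, which binds insulin-like growth factors, stood at -4.18 with full-length MYC (the authors' deposited table) and at -1.67 without box II. NPNT, a matrix ligand of integrins, stood at -3.87 with full-length MYC (the authors' deposited table) and at -1.41 without box II. SCG2, a secretory granule protein, stood at -3.42 with full-length MYC (the authors' deposited table) and at -1.53 without box II. INHBA, the activin A subunit, went from -3.16 with full-length MYC (the authors' deposited table) to -1.11 without box II. These 4 were reduced but stayed past 1.

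Others came nearer to vector. Fibronectin (FN1) went from -2.51 with full-length MYC (the authors' deposited table) to -0.74 without box II. In d2 against EV the actin-binding adaptor SORBS2 stood at -0.91, the complement C1 inhibitor SERPING1 at -0.81, FGF1 at -0.65, AFAP1L2 at -0.58 and the membrane repair protein DYSF at -0.32. Of the 224, 3 lay at least 0.25 above vector in d2: the adhesion molecule NRCAM (0.36), CSGALNACT1 (0.28), which starts chondroitin sulfate chains, and the mRNA decay factor ZFP36L1 (0.25).

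Of the 105 genes called in d2 against WT and not in WT against EV, 5 lay past 1 above vector in d2 and 5 past 1 below. These are no larger shares than the 6.39% and 8.04% of all genes. PTPRZ1, a receptor phosphatase of neural cells, stood at -3.58 in WT against EV and 5.82 in d2 against WT in the authors' deposited table, and so at 2.25 in d2 against EV, while the other 6 forms lay between -4.40 and -2.42. HCLS1, a haematopoietic actin regulator, stood at 1.53 in d2 against EV. The lower ones by the rule were the taste receptor TAS2R5 at -2.08, the phosphatase subunit PPP2R2C at -1.61 and OR51M1, of the same chromosome 11 stretch, at -1.03. CHL1, a neural adhesion molecule, reached 3.03 in d2 against EV and was called in d2 against WT in the authors' deposited table, but has no fold in some of the other comparisons and is named after its values were seen.

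Gene lists showed how far each function of MYC stood from vector. The ribosome biogenesis and nucleolus list, 41 measured genes, had medians of 0.57 in WT against EV and -0.43 in d2 against WT in the authors' deposited table, and of 0.13 in d2 against EV. Per the authors' deposited table, 18 of the 41 rose in WT against EV and 7 fell in d2 against WT. None was past 1 in d2 against EV, where values ran from -0.16 to 0.44, and 34 lay within 0.25. RRP1B, a nucleolar protein, stood at 0.92 with full-length MYC (the authors' deposited table) and at 0.16 without box II. NOP56, a core protein of box C/D snoRNPs, stood at 0.62 with full-length MYC (the authors' deposited table) and at -0.01 without box II. NOLC1, a nucleolar chaperone of these particles, stood at 0.13 in d2 against EV. The assembly factor PNO1, picked after its values were seen, kept more, with 0.77 with full-length MYC (the authors' deposited table) and 0.38 without box II.

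RNA polymerase I and III genes, 31 measured, had a median of 0.24 with full-length MYC (the authors' deposited table) and 0.04 without box II, with 9 risen and 2 fallen in the respective deposited comparisons. POLR1E, a subunit of RNA polymerase I, stood at 0.66 with full-length MYC (the authors' deposited table) and at 0.04 without box II. The 37 cytosolic ribosomal protein genes had medians of 0.29 with full-length MYC (the authors' deposited table) and -0.08 without box II, with RPS6 at -0.13 and RPS12 at -0.09 below vector and RPL9 at 0.18 above. Ribosomal protein genes have many processed copies in the genome, so their counts are uncertain. Nucleotide synthesis genes (25) went from 0.40 with full-length MYC (the authors' deposited table) to 0.09 without box II, and 5 of them rose in WT against EV. TYMS, thymidylate synthase, had similar folds with and without box II, at 0.42 with full-length MYC (the authors' deposited table) and 0.39 without box II, while GART, of purine synthesis, stood at 0.01 without box II.

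Mitochondrial import, chaperone and biogenesis genes (30) went from 0.42 with full-length MYC (the authors' deposited table) to 0.13 without box II. The coactivator PPARGC1B stood at 1.67 with full-length MYC (the authors' deposited table) and at 0.31 without box II. HSPE1, the mitochondrial co-chaperonin, kept 0.66 without box II of 0.77 with full-length MYC (the authors' deposited table). Of the metabolic enzymes, HK2, the first enzyme of glycolysis, stood at 1.02 with full-length MYC (the authors' deposited table) and at 0.20 without box II. ODC1, the rate-limiting enzyme of polyamine synthesis, stood at 0.76 with full-length MYC (the authors' deposited table) and at 0.21 without box II. The amino acid transporter SLC7A2 kept 0.57 in d2 against EV.

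The 33 G1/S and DNA replication genes had medians of 0.27 with full-length MYC (the authors' deposited table) and -0.04 without box II, a value too small for its sign to be interpreted here. CCNE1, which starts S phase, stood at 0.78 with full-length MYC (the authors' deposited table) and at 0.01 without box II. CDC25A, the phosphatase that activates cyclin-dependent kinases, stood at 0.76 with full-length MYC (the authors' deposited table) and at -0.04 without box II. CCND2, above, was the only G1/S member past 1. Of the 25 G2/M genes none was called in either comparison, and their median was 0.08 in d2 against EV.

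**Figure D3:**
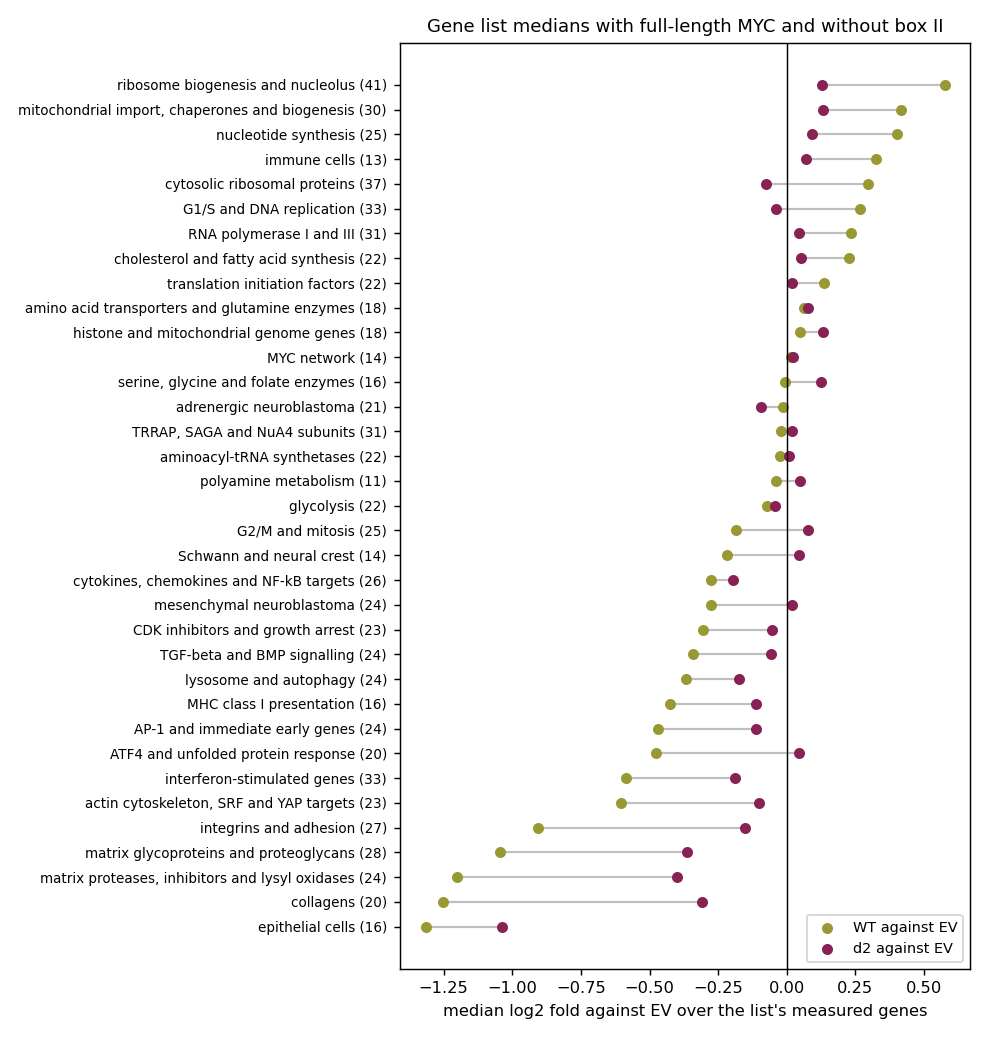
Median log2 fold against EV (horizontal) of each of 35 gene lists, with the number of measured genes in brackets, in WT against EV and in d2 against EV. Lists raised by full-length MYC (top) and lists of matrix and adhesion genes (bottom) lie nearer to 0 in d2, whereas the epithelial list moves from -1.32 to -1.04.

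Matrix genes lay lowest among the lists that full-length MYC lowered, epithelial genes apart. The 20 collagen genes had medians of -1.25 with full-length MYC (the authors' deposited table) and -0.31 without box II. Of the 20, 11 fell in WT against EV and 4 rose in d2 against WT in the authors' deposited table. COL3A1, a fibrillar collagen, stood at -1.23 with full-length MYC (the authors' deposited table) and at -0.29 without box II. COL8A1 kept -0.64 and COL4A1, of basement membranes, -0.46 in d2 against EV. COL13A1, a transmembrane collagen, was the one collagen past 1, at -1.10. Matrix glycoproteins and proteoglycans (28) went from -1.04 with full-length MYC (the authors' deposited table) to -0.36 without box II, with 17 fallen and 8 risen in the respective deposited comparisons. SPARC, which binds collagen, stood at -1.41 with full-length MYC (the authors' deposited table) and at -0.28 without box II, and thrombospondin 1 (THBS1) at -0.47 without box II. In the authors' separate fit, over bound members alone, the medians were -0.03 for 12 collagens, -0.17 for 16 glycoproteins and -0.20 for 16 proteases and inhibitors; the same members had -0.09, -0.20 and -0.33 in the first table.

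Matrix proteases, inhibitors and lysyl oxidases (24) went from -1.20 with full-length MYC (the authors' deposited table) to -0.40 without box II. PLAU, the urokinase plasminogen activator, kept -0.85 without box II of -2.08 with full-length MYC (the authors' deposited table). SERPINB2, TIMP3 and PLAT were the list's 3 members past 1. Integrin and adhesion genes (27) went from -0.91 with full-length MYC (the authors' deposited table) to -0.15 without box II. ITGA11, a collagen-binding integrin, kept -0.97 and ITGB3 -0.59 in d2 against EV, while CHL1 and ICAM1 (-2.18) were the 2 members past 1. ICAM1 was called in neither comparison. Actin cytoskeleton, SRF and YAP target genes (23) went from -0.61 with full-length MYC (the authors' deposited table) to -0.10 without box II, with 8 fallen and 5 risen in the respective deposited comparisons. CTGF stood at -0.46 and CYR61 at -0.22 in d2 against EV.

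Interferon-stimulated genes (33) had medians of -0.59 with full-length MYC (the authors' deposited table) and -0.19 without box II. Per the authors' deposited table, 8 of them fell in WT against EV and 0 were called in d2 against WT. SLFN11, OAS2 (-2.21), MX2 (-1.11) and IFI27 (-1.10) were the 4 members past 1 in d2 against EV. OAS2, MX2 and IFI27 were called in neither comparison. SLFN5 (-0.13) and IFI44 (-0.19) lay near vector. ATF4 and unfolded protein response genes (20) went from -0.48 with full-length MYC (the authors' deposited table) to 0.04 without box II. CHAC1, which degrades glutathione, stood at -1.90 with full-length MYC (the authors' deposited table) and at 0.18 without box II, and VLDLR at -0.05. STC2, at -1.21, was the 1 member past 1 and was called in neither comparison. SNAI2, a transcription factor of mesenchymal cells, went from -1.35 with full-length MYC (the authors' deposited table) to 0.01 without box II.

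Subunits of the TRRAP, SAGA and NuA4 complexes, the partners box II is known for, lay near vector. All 31 measured members lay within 0.25 of vector in d2, with TRRAP itself at 0.09 and, picked after their values were seen, EP400 at 0.05 and KAT2A at 0.02 in d2 against EV. The helicase RUVBL1, a member of NuA4, stood at 0.51 with full-length MYC (the authors' deposited table) and at -0.03 without box II. MAX stood at 0.04.

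MYC binding was mapped in 1 experiment, and the authors' deposited table of bound genes covers 9130 of the genes with both folds. In d2 against EV, 66 of these (0.723%) were past 1 above and 124 (1.36%) past 1 below, against 2284 (8.25%) and 2835 (10.2%) of the 27675 other genes. Genes without a site also scatter more in d3b against WT, with a median absolute fold of 0.36 against 0.12. Bound genes called risen in WT against EV (510) had a median of 0.12 in d2 against EV, and risen genes without a site (244) 0.18. For fallen genes these were -0.19 (554 bound) and -0.28 (565 not bound). Of the 85 lowered genes that stayed past 1 without a call in d2 against WT, 16.5% had a site, against 49.5% of all fallen genes and 50.7% of protein-coding genes.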

How the data were processed

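RNA-seq libraries of d2, WT and EV cells (4 each) enter through 2 tables of group comparisons that the authors deposited. Per the file headers, values are log2 posterior folds and PPDE, a fraction between 0 and 1, from a Bayesian model of read counts. The second table, of 9368 MYC-bound genes, comes from its own fit. Named in the submitters' processing notes are the build GRCh37, DESeq, R 3.3.1, edgeR 3.16.5 and the aligner STAR 2.5.2a; what scaled the libraries is not given in the sources used here. Values per library and depths were not used here, so errors, intervals and tests of d2 against EV could not be computed. The precision of the sum is therefore not known, and the d3b scatter does not measure it.

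Folds were summed per gene in Python 3.11.15 with pandas 2.3.3. Simulated data checked the arithmetic of the sum only, since WT nearly cancels there by construction. The shrinkage and scaling of the deposited folds were not simulated. Gene types came from GENCODE 29 by symbol. Promoters came from RefSeq. The members, the 35 lists (814 of 828 genes had both folds) and the naming rule were chosen with earlier results of these data known. Eligible for naming were 24985 genes with a value in all 7 comparisons and a symbol that is not a clone or LOC name. Named were MYC and MYCN; the 10 largest sums each way among genes called in WT against EV only and past 1; the 10 largest WT against EV folds each way among genes called oppositely in both; up to 5 each way called in d2 against WT only and past 1; and, from each list, some of the 4 with the highest PPDE. Other named genes are so marked, are markers, or are a list's members past 1. The 3 genes FAM110C, GJB2 and EHF, called in WT against EV, have no d2 fold.

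Alternatives were 1.5-fold and 4-fold limits, PPDE of 0.90 and 0.99, protein-coding genes, the fit of bound genes, centring on the median gene, and genes quiet in d3b against WT. Leaving out model-set folds, the epithelial list or falls of at least 3, and choosing genes by d4 or d0x calls, were added after the data were seen. All samples had a group. A few items are not reported here.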

Additional observations from a re-analysis of the deposited data

How the results depend on the processing

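No paired analysis was possible because the values are the authors' comparisons of whole groups, without columns per library; for the same reason no library could be left out. The median of the 754 risen genes stayed above 0 under every alternative run, between 0.128 and 0.157. That of the 1119 fallen genes stayed below 0, and was -0.14 in the separate fit of bound genes. Counts past the limit depended on it and on the genes kept; in each case below they are given as higher, then lower, than EV. For all genes they were 4620 and 5077 at 1.5-fold, 430 and 588 at 4-fold, 415 and 748 for protein-coding genes, 42 and 70 in the fit of bound genes, 443 and 564 for genes quiet in d3b (at most 0.25 from WT), and 1177 and 1421 without model-set folds. For genes risen and genes fallen in WT against EV they were 53 and 195 at 1.5-fold, 2 and 46 at 4-fold, 5 and 15 in the fit of bound genes, 9 and 28 for quiet genes, and 34 for fallen genes without falls of at least 3. For list members they were 19 and 73 at 1.5-fold, 3 and 18 at 4-fold, 0 and 4 in the fit of bound genes, 4 and 11 for quiet genes, and 25 lower without falls of at least 3. For MYC-bound genes they were 198 and 288 at 1.5-fold, 11 and 26 at 4-fold, 41 and 78 for protein-coding genes, 42 and 70 in the fit of bound genes, 17 and 24 for quiet genes, and 38 and 76 without model-set folds. Settings that keep fewer genes lower these counts by construction. Of 140 list medians, 7 changed sign. Their first values were at most 0.09 in size. In the fit of bound genes, which covers bound members only, the adrenergic and the TGF-beta and BMP medians became 0.13. The same bound members, 7 and 17 genes, already had 0.11 and 0.07 in the first fit. Among medians that moved by 0.1 or more (9 in the fit of bound genes, 5 for quiet genes), collagens went to -0.03 and -0.19, interferon-stimulated genes to -0.03 and epithelial genes to -0.24 and -0.63; centring moved a list median by at most 0.02. Bound members alone had -0.09 for collagens, -0.14 for interferon-stimulated genes and -0.32 for epithelial genes in the first fit. The fit of bound genes differed from the first by a median of 0.03 per gene. Of 104 named bound genes, it lost 11 of 46 calls in d2 against WT (VCL to a PPDE of 0.0159, WARS, CTSB, WIPI1, PLAU, KARS, NOP16, RUVBL1, SLC1A4, DYSF and LATS2, the others to between 0.424 and 0.945) and gained 14; in WT against EV it lost 2 of 87, GLUL and PFKM, and gained 6 (PPDE from the authors' deposited tables). Precision is limited by reads per gene: the most frequent pair of model-set folds, held by 441 genes, sums to -0.05, so differences of that size around 0 are not interpreted.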

Other observations

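Stress, immune and signalling lists not described above had medians near vector without box II, but many of their members lay further away. Within 0.25 of vector lay 9 of 26 cytokine, chemokine and NF-kB target genes. For growth arrest genes this was 10 of 23, and for TGF-beta and BMP genes 11 of 24. Lysosome and autophagy genes (24) had medians of -0.37 with full-length MYC (the authors' deposited table) and -0.18 without box II; the cathepsin CTSB stood at -0.30 and the cholesterol carrier NPC2 at -0.44 without box II. AP-1 and immediate early genes (24) had medians of -0.47 with full-length MYC (the authors' deposited table) and -0.11 without box II. The ERK feedback regulators SPRY4 and DUSP6 kept -0.82 and -0.76 in d2 against EV, while the phosphatase DUSP1 stood at 0.04. Of the growth arrest genes, the arrestin ARRDC4 stood at -4.25 (a fold set by the model), its relative TXNIP at -0.38 and the transcription factor KLF2 at -0.62 in d2 against EV.

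In TGF-beta and BMP signalling, BMP2 (2.11), INHBA (-1.11) and the activin antagonist FST (-1.36) were past 1 in d2 against EV. FST was called in neither comparison. The ligand BMP6 kept 0.55 and the latent TGF-beta binding protein LTBP1 -0.70. Cholesterol and fatty acid synthesis genes (22) had medians of 0.23 with full-length MYC (the authors' deposited table) and 0.05 without box II, and the desaturase SCD kept 0.37. Genes of the mitochondrial genome and of histones (18), read as a sign of RNA quality, had a median of 0.13 in d2 against EV and none past 1. Of 13 immune cell genes, 7 have folds set by the model and none was called in either comparison, and of 14 Schwann and neural crest genes 1 fell in WT against EV.

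The remaining lists had d2 against EV medians close to 0: 0.02 for the MYC network (14 genes), 0.05 for polyamine metabolism (11), 0.12 for serine, glycine and folate enzymes (16), 0.08 for amino acid transporters and glutamine enzymes (18), -0.04 for glycolysis (22), 0.01 for aminoacyl-tRNA synthetases (22), 0.02 for translation initiation factors (22) and -0.11 for MHC class I presentation (16). Of these 8 lists, 1 gene was past 1, the amino acid transporter SLC38A5 at -2.18, which was not called. The median was -0.05 for growth arrest genes (23) and -0.06 for TGF-beta and BMP genes (24). Cytokine, chemokine and NF-kB target genes (26) had a median of -0.20. CCL5 (1.58) and SAA1 (1.79) were past 1 above vector, and IL1B (-4.03), IL1A (-2.24), CXCL10 (-1.94) and TNFAIP3 (-1.05) past 1 below. IL1A, CXCL10 and TNFAIP3 were called in neither comparison. Adrenergic neuroblastoma genes (21) had a median of -0.09 in d2 against EV, with STMN2 past 1 above and RET, DDC, EYA1, PHOX2A and CHGA past 1 below; none of these 6 was called in either comparison, and 4 of the 21 have model-set folds.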
